A study of Mus musculus with 4 samples.

Results

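The regions described here are H2A.Z sites found in both wild-type and Anp32e knockout mouse embryonic fibroblasts whose peak reached farther out on both sides in the knockout. They were taken from matched pairs, in which a wild-type and a knockout peak share at least 1 bp with each other and with no other peak of the opposite list. A pair was kept where the wild-type peak was narrower than 3500 bp and the knockout peak extended 200 bp or more past each of its edges. Of 28979 matched pairs, 27746 lay under the width limit, and 3110 of these were extended on both sides, 11.2% of the pairs under the limit (95% interval 10.8 to 11.6%). They make up 8.26% of the 37667 wild-type peaks and 7.42% of the 41912 knockout peaks. The pairs were thus chosen by the positions of both edges in both genotypes, so the sizes of the extensions are a description.

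The data are H2A.Z chromatin immunoprecipitation sequencing (ChIP-seq) peak lists from a wild-type culture (Anp32e+/+) and a knockout culture (Anp32e-/-), both on a C57BL/6 background and at passages 5 to 10. Per the labels' protocols, the fibroblasts came from the torso of single embryos at embryonic day 10.5, from crosses of heterozygous mice. There is 1 H2A.Z library per genotype and no replicate, so every difference describes these 2 libraries, and the intervals count pairs as independent and cover counting error alone. The lists hold no read count or peak height, so sequencing depth could not be compared, and a deeper library, a stronger enrichment and a wider spread of H2A.Z cannot be told apart from peak edges. Coordinates are on mm9 and are given counting from 1. The lists do not state their convention and were read as BED, with starts counted from 0; if they count from 1, starts printed here are 1 bp too high and widths 1 bp too small, and extensions are unchanged. Gene names and sequences were not used here, because the tables at hand are on a different build.

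H2A.Z is a variant of histone H2A that replaces it in nucleosomes on either side of active promoters and at many enhancers. It is placed there by remodelling complexes that exchange it for the canonical histone, and chaperones bind it when it leaves the nucleosome. Anp32e is such a chaperone, and it is known for taking H2A.Z off chromatin. A peak edge marks the place where the sequenced fragments no longer stand out from the background, so an edge that lies farther out means that enriched fragments were called over a longer stretch.

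The knockout peak of an extended pair was wider than its wild-type partner by 402 to 4954 bp. The median width of these pairs was 1458 bp in wild-type cells, with quartiles of 1163 and 1977 bp, and 2475.5 bp in knockout cells, with quartiles of 1990 and 3071 bp. The median added width was 797 bp (95% interval 775 to 816 bp), with 5% of pairs below 473 bp and 5% above 2153 bp. The knockout peak was a median of 1.57 times as wide as its wild-type partner, and it was at least 2 times as wide in 596 pairs (19.2%) and at least 3 times as wide in 77. Within its own list the median extended peak moved from the 40.8th width percentile in the wild type to the 74.3rd in the knockout, so these sites went from below the middle to the upper part of the width range. All 27746 pairs together had a median gain of 218 bp.

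In sum the extended pairs covered 5.03 Mb in the wild type and 8.13 Mb in the knockout. The 3.10 Mb added at their edges is 28.0% of the 11.1 Mb that shared knockout peaks covered outside wild-type peaks. The covered length of the other matched pairs under the limit was 1.11 times as large in the knockout as in the wild type, against 1.62 times for the extended pairs. The rule selects for this gap.

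Both edges moved by similar amounts over the whole set. The median extension was 352 bp at the edge of lower coordinates (95% interval 343 to 359 bp) and 350.5 bp at the other edge (95% interval 341 to 359 bp). The lower edge had the larger extension in 1582 pairs, the higher edge in 1524, and 4 pairs were even. Within a pair the sides were less alike. The smaller extension had a median of 276 bp and the larger a median of 487 bp, so that the smaller side supplied a median of 38.8% of the added width. In 1436 pairs (46.2%) the larger side was less than 1.5 times the smaller, while in 561 pairs (18.0%) it was 3 times the smaller or more. The centre of the peak lay a median of 87.5 bp apart between the genotypes.

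Most of the extended pairs had an extension under 300 bp on at least 1 side. The smaller extension was under 300 bp in 1827 pairs (58.7%), between 300 and 500 bp in 1000 pairs, between 500 and 1000 bp in 249 and at least 1000 bp in 34. The larger extension reached 1000 bp or more in 591 pairs. A reach of 1000 bp or more was thus far more often seen on 1 side than on both. Across the 3110 pairs the extensions at the 2 edges were hardly related (Pearson r 0.04, Spearman rho 0.05). The rule cuts both extensions at 200 bp, which by itself weakens such a relation. Over all 27746 pairs under the limit the values were 0.099 and 0.181. They are a description over pairs that share the same 2 libraries.

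**Figure D1:**
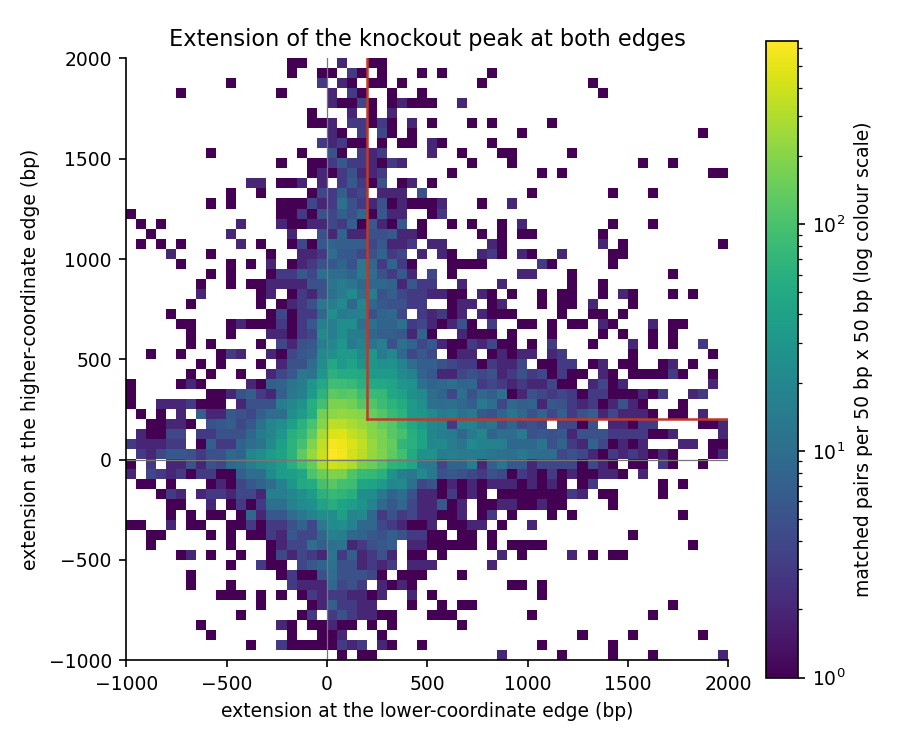
Extension of the knockout peak past the wild-type peak at the edge of lower coordinates (x axis, bp) and of higher coordinates (y axis, bp) for the 27746 matched pairs under the width limit, as counts per square of 50 bp on a log colour scale; 277 pairs lie outside the axes. The red lines enclose the 3110 pairs extended by 200 bp or more on both sides. Of the 1365 pairs extended by 1000 bp or more at an edge, 774 (56.7%) lie outside them. In these the other edge moved outward by less than 200 bp or moved inward.

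Over all pairs under the limit, an extension on 1 side went with an extension on the other. The lower edge was extended by 200 bp or more in 29.1% of pairs and the higher edge in 29.2%. Where the lower edge was extended, the higher edge was extended as well in 38.5% of pairs, and where the lower edge was not, in 25.4%. Weighted to the chromosomes of the former, the second share was 30.2%, and it was below the first on each of the 20 chromosomes. Starting width was not matched here. Extension on a single side was more frequent in the narrowest of 10 wild-type width classes (48.7%) than in the widest (32.0%). Both edges enter the rule, so these shares are a description. A further 9962 pairs were extended on a single side, 4964 at the lower and 4998 at the higher edge, and 14674 on neither.

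The same rule turned around found far fewer pairs. Of the 26795 matched pairs with a knockout peak narrower than 3500 bp, 163 (0.608%; 95% interval 0.519 to 0.709%) had a wild-type peak reaching 200 bp or more past both knockout edges. Pairs extended in the knockout outnumbered them 19.1 times (95% interval 16.3 to 22.5). Without chromosome 4, which held 59 of the 163, the ratio was 29.5 (95% interval 24.3 to 36.2). These shortened pairs had a median width of 2594 bp in the wild type and 1702 bp in the knockout, and lost a median of 752 bp. Knockout edges lay farther out over all 27746 pairs under the wild-type width limit, by medians of 94 bp at the lower and 97 bp at the higher edge. A fixed limit of 200 bp is thus passed more easily outward than inward. The ratio includes this shift of the whole list, and depth is unknown.

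The pairs with the largest extension on their smaller side came from 8 chromosomes. The first lay on chromosome 1, where a wild-type peak of 2988 bp at 156898119 to 156901106 became a knockout peak of 7942 bp at 156895857 to 156903798, with 2262 bp added below and 2692 bp above. It was the widest knockout peak of all 3110 pairs. The next was on chromosome 9, from 1212 bp (57958864 to 57960075) to 5219 bp (57956487 to 57961705), or 4.31 times as wide. These 2 sites differ in that the first was already wide in the wild type and the second was narrower than most extended pairs.

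On chromosome 13, 2 of these 10 pairs were near neighbours. The peak at 51428140 to 51429546 went from 1407 to 4886 bp, with 1874 and 1605 bp added, and the peak at 51408305 to 51411646 went from 3342 to 6711 bp, with 1923 and 1446 bp added. After the extension the nearest other knockout peak lay 0.054 kb from the second of them, whereas its nearest other wild-type peak was 8.43 kb away. H2A.Z peaks thus came closer together around this site in the knockout list.

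The other 6 also had long additions on both sides, as the ranking by the smaller extension requires. On chromosome 10 the peak at 128369518 to 128372089 went from 2572 to 5778 bp. On chromosome 2 the peak at 92646471 to 92648257 went from 1787 to 6106 bp, with 1485 bp added below and 2834 bp above. On chromosome 18 the peak at 47079064 to 47080236 went from 1173 to 4219 bp, with nearly even additions of 1577 and 1469 bp. The last 3 were on chromosome 3 (108098947 to 108100524, from 1578 to 4973 bp), chromosome 1 (64272002 to 64273805, from 1804 to 5927 bp) and chromosome 16 (94084499 to 94086743, from 2245 to 5467 bp). In all 10 the larger extension was under 2 times the smaller. A ranking by the smaller side favours pairs with even sides, so this describes the choice of pairs.

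**Figure D2:**
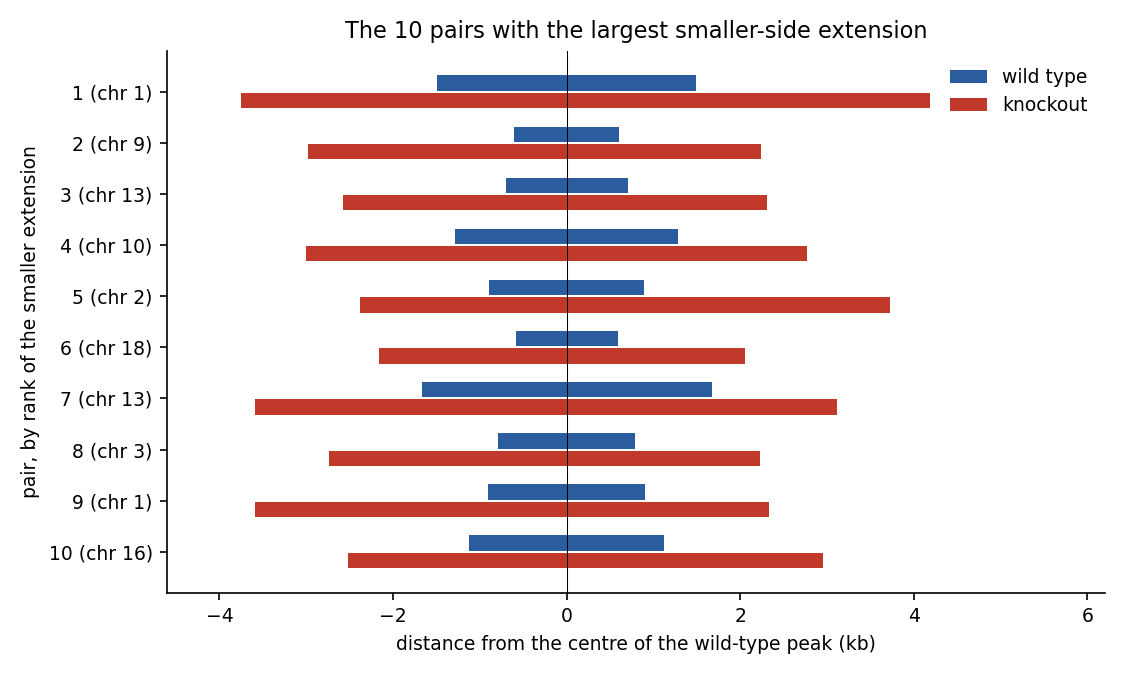
Wild-type (blue) and knockout (red) peaks of the 10 pairs with the largest smaller-side extension, drawn to scale around the centre of the wild-type peak (x axis, kb), in rank order from the top. Each knockout peak passes its wild-type partner by at least 1395 bp on both sides.

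At the edge of the rule the number of pairs did not break off. The smaller extension was 200 to 209 bp in 259 pairs, just inside, and 190 to 199 bp in 264 pairs, just outside. Among those at exactly 200 bp were a pair on chromosome 1 (75482941 to 75485383), which went from 2443 to 2956 bp, and 4 on chromosome 2 starting at 75797256, 124683900, 158099057 and 158131558, which had added widths of 738, 636, 485 and 625 bp. Among those at 199 bp were 4 on chromosome 1 starting at 39924447, 58501258, 88254945 and 93435785, with added widths of 865, 451, 426 and 435 bp, and 1 on chromosome 2 starting at 27719318, with 434 bp. The 5 pairs just inside had added widths of 485 to 738 bp and the 5 just outside 426 to 865 bp, so the ranges overlapped. Ties were taken by chromosome and position. By starting width, the last pair inside was 3479 bp wide (chromosome 15, 68088666 to 68092144) and grew by 829 bp, and the first pair past the limit was 3501 bp wide (chromosome 19, 6239362 to 6242862) and grew by 1127 bp.

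Extended pairs started narrow. Their median wild-type width of 1458 bp (95% interval 1432 to 1488 bp) compared with 1676 bp for pairs extended on a single side (95% interval 1659 to 1696 bp) and 1950 bp for pairs extended on neither (95% interval 1937 to 1964 bp). In the knockout the order was turned round, with medians of 2475.5, 2167 and 1955 bp. Among the narrowest of 10 width classes, 479 to 1117 bp in the wild type, 23.0% of pairs were extended on both sides (95% interval 21.5 to 24.6%). The share fell through the classes to 6.90% at 2005 to 2202 bp and stayed between 6.17 and 6.90% in the 4 widest. The wild-type width enters the rule, so this order is a description.

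The amount added did not follow the starting width in the same way, but the rule sets the same floor at every width. It requires 200 bp or more on each side, and no extended pair gained less than 402 bp. The median added width of extended pairs was 803.5 bp in the narrowest class and 806.5 bp in the widest, and lay between 715 and 838 bp in all 10. With this floor the least possible ratio of knockout to wild-type width falls as the starting width rises. The median ratio dropped from 1.88 to 1.26. On each of the 20 chromosomes the share extended was higher among pairs at or below the median starting width of 1808 bp than above it, at 15.3% against 7.12% overall. Pairs shortened on both sides were likewise more frequent where the peak was narrow in the knockout, with 1.37% in the narrowest class of knockout width and 0.299% in the widest. A narrow peak in either list was thus more often the inner member of such a pair.

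**Figure D3:**
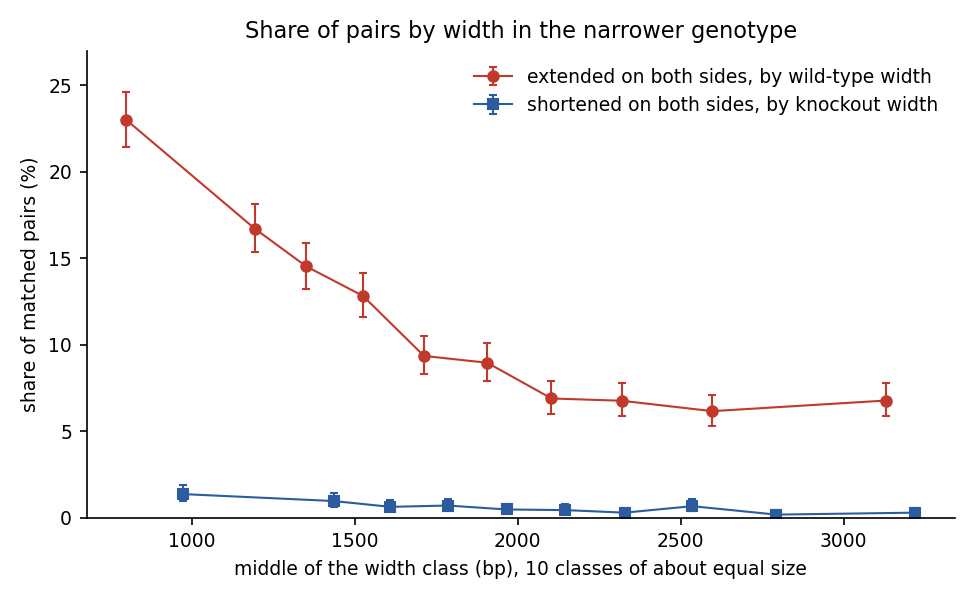
Share of matched pairs (y axis, %) extended on both sides in the knockout, by wild-type width (red circles), and shortened on both sides, by knockout width (blue squares), in 10 width classes of about equal size each (x axis, middle of the class, bp); bars are exact 95% binomial intervals. The red share runs from 23.0% in the narrowest class to 6.78% in the widest, and the blue share from 1.37% to 0.299%.

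The 3 narrowest extended pairs of the wild-type list lay on chromosomes 1 and 3. On chromosome 3, 150986715 to 150987257, a peak of 543 bp became 1448 bp. On chromosome 1, 139824462 to 139825029, a peak of 568 bp became 1629 bp. The third was on chromosome 3, 154235387 to 154235955, where 569 bp became 1290 bp. All 3 were more than 2 times as wide in the knockout list.

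The wild-type spacing around extended pairs differed little from that around other pairs. The median gap to the nearest other wild-type peak was 8.95 kb (95% interval 8.41 to 9.68 kb, quartiles 3.48 and 21.7 kb), against 8.70 kb for the other pairs (95% interval 8.51 to 8.90 kb). Another wild-type peak lay within 5 kb of 33.3% of extended pairs and of 35.8% of the others. When the other pairs were weighted to the same mix of chromosomes, their share was 33.6%.

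Only the closest spacing stood out. Of the 992 pairs with another wild-type peak less than 0.5 kb away, 25 were extended on both sides, or 2.52% (95% interval 1.64 to 3.70%). The share was 9.23% at 0.5 to 1 kb, 10.6% at 1 to 2 kb and 11.8% at 2 kb or more. The rule limits the closest of these most, since a knockout peak that reaches a second wild-type peak no longer forms a matched pair. The larger extension reached 1000 bp or more in 591 pairs, so the rule can lower the next 2 shares as well. In 10 classes of spacing the share was 7.28% in the closest, up to 1.19 kb, and between 10.2 and 12.9% in the other 9.

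Spacing was wide around the 3 most isolated extended pairs, which still grew on both sides. On the X chromosome a peak of 1447 bp at 63905603 to 63907049, with no other wild-type peak within 2023 kb, became 2167 bp wide. On chromosome 3 a peak of 859 bp at 3507726 to 3508584 became 1661 bp, with 398 bp added below and 404 bp above. On chromosome 6 a peak of 1189 bp at 110595199 to 110596387 became 2008 bp. Extension on both sides was thus seen at sites with no neighbour in either list for over 1 Mb.

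In the knockout list extended sites had nearer neighbours. The nearest other knockout peak lay a median of 5.48 kb away (95% interval 5.14 to 5.80 kb), against 7.66 kb for the other pairs (95% interval 7.44 to 7.86 kb). The gap to the nearest peak of the same list was shorter among knockout peaks for 2799 of the 3110 extended pairs. The same held for 17494 of the 24636 others (71.0%). Each extended edge shortens that gap by itself. The nearest knockout peak was one found in the knockout alone for 36.2% of extended pairs (95% interval 34.5 to 38.0%) and for 24.4% of the others (95% interval 23.9 to 24.99%). These shares were not weighted to the same chromosomes. Extended pairs were more frequent on chromosomes with more knockout peaks per wild-type peak, so part of the gap may go with the chromosome.

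Peaks found in the knockout alone lay near extended pairs more often than near other pairs. At least 1 such peak lay within 10 kb of 1038 of the 3110 extended pairs, or 33.4% (95% interval 31.7 to 35.1%), and of 4870 of the 24636 others, or 19.8% (95% interval 19.3 to 20.3%). The mix of chromosomes moved with this difference. Weighted to the chromosomes of the extended pairs, the others had a share of 25.1%, and weighted to their chromosomes and starting widths a share of 26.3%. The share was higher for extended pairs on 17 of the 20 chromosomes. Pairs extended on a single side lay between, at 24.3% unweighted. These distances ran from the edges of the joined region, which each extension widens. Measured from the wild-type centre, the shares were 30.5% of extended pairs and 18.1% of the others. Weighted to the same chromosomes and starting widths, the latter was 24.4%. With 1 library per genotype the difference was not tested.

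Peaks found in the wild type alone did not show this. They lay within 10 kb of 11.4% of extended pairs (95% interval 10.3 to 12.6%) and of 14.8% of the others (95% interval 14.4 to 15.3%). Weighted to the same chromosomes, the share among the others was 11.3%, so the difference was no longer seen once the chromosomes were matched.

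**Figure D4:**
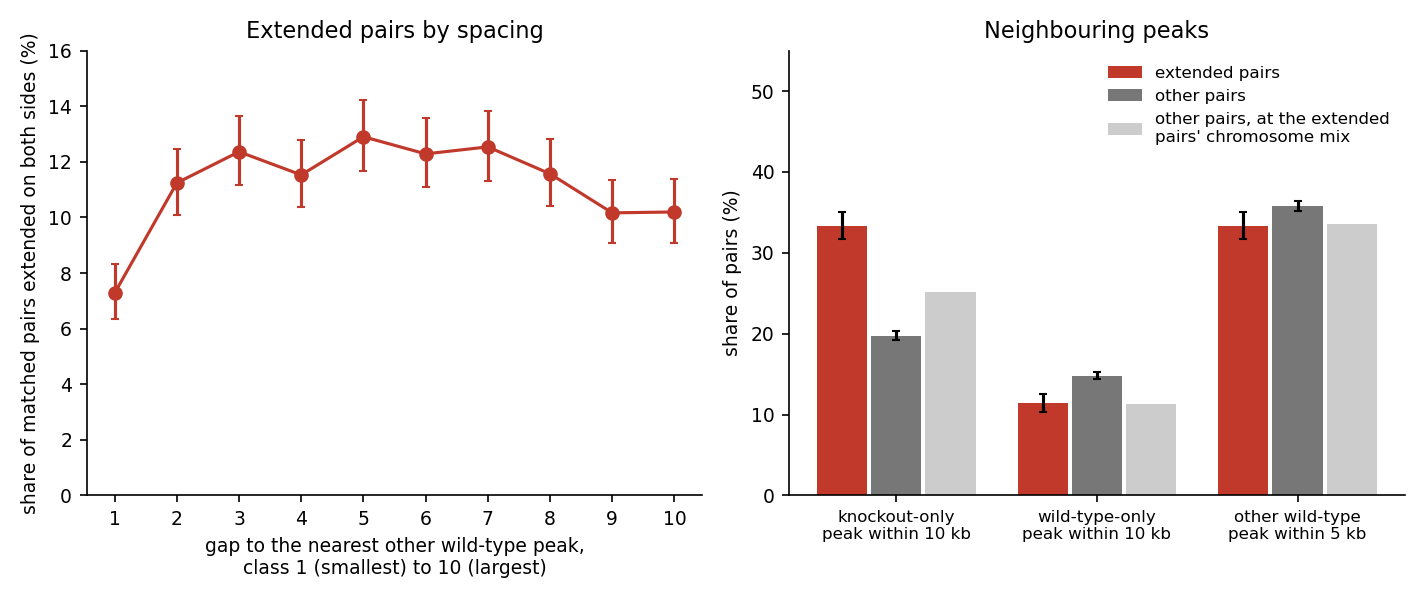
Left, share of matched pairs extended on both sides (y axis, %) in 10 classes of the gap to the nearest other wild-type peak (x axis, class 1 closest). Right, share of pairs (y axis, %) with a neighbouring peak of each kind for extended pairs (red), other pairs (dark grey) and other pairs weighted to the extended pairs' chromosomes (light grey); bars start at 0 and error bars are exact 95% binomial intervals, not computed for the weighted shares. Knockout-only peaks lay near 33.4% of extended pairs and 25.1% of the weighted others.

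The larger extension faced a neighbouring peak about as often as it faced away. It faced the nearest other wild-type peak in 1521 of 3102 extended pairs, or 49.0% (95% interval 47.3 to 50.8%). Where that neighbour lay within 5 kb the share was 46.3% (95% interval 43.3 to 49.4%), in a range where the matching removes a knockout peak that reaches its neighbour, and beyond 5 kb it was 50.4%. It faced the nearest knockout-only peak in 51.0% of 3106 pairs (95% interval 49.2 to 52.8%). For the other pairs with a wild-type neighbour within 5 kb, the side that was extended more faced it in 48.3%.

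The share of pairs extended on both sides differed more between chromosomes than by any other feature examined. On chromosome 1, 414 of 1613 pairs were extended, or 25.7% (95% interval 23.5 to 27.9%). Chromosome 16 followed with 220 of 906 pairs, or 24.3% (95% interval 21.5 to 27.2%), and the intervals of these 2 overlap. Chromosome 13 had 20.4%, chromosome 15 had 18.9% and chromosome 5 had 17.4%. These 5 chromosomes held 1514 extended pairs, which is 48.7% of all of them, with 26.0% of the pairs under the limit.

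At the other end, 6 chromosomes had few extended pairs. On chromosome 4, 41 of 1799 pairs were extended, or 2.28% (95% interval 1.64 to 3.08%). Chromosomes 12, 6, 11, 14 and 17 followed, with 3.03, 3.45, 3.92, 4.39 and 5.02%. Neighbours in this order have overlapping intervals. Together the 6 held 293 extended pairs, 9.42% of the set, with 29.2% of the pairs under the limit. The highest upper bound among them was 6.35%, below the lower bound of each of the other 14 chromosomes, of which the lowest was 6.93% on chromosome 2. The median of the 20 chromosomes was 10.5%, and the highest share was 11.3 times the lowest.

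Chromosome 4 was the only chromosome of the 20 with more pairs shortened than extended on both sides. It held 59 of the 163 shortened pairs of the genome, which is 3.20% of its pairs with a narrow knockout peak (95% interval 2.45 to 4.11%), against its 41 extended pairs. On the other 19 chromosomes the shortened share was at most 0.893%, on chromosome 12. On chromosome 1 a single pair was shortened beside 414 extended.

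**Figure D5:**
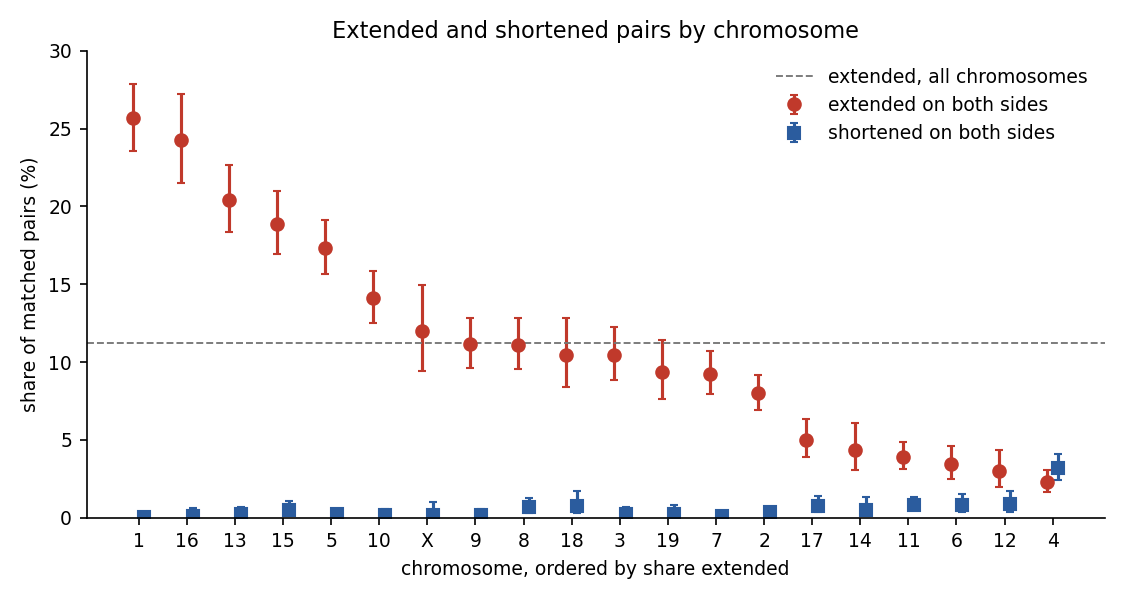
Share of matched pairs (y axis, %) extended (red circles) and shortened (blue squares) on both sides in the knockout, by chromosome in order of the share extended (x axis); bars are exact 95% binomial intervals and the dashed line is the 11.2% extended over all chromosomes. The extended share runs from 25.7% on chromosome 1 to 2.28% on chromosome 4, where the shortened share of 3.20% is the higher one.

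Whole chromosomes differed in their number of peaks as well. Chromosomes 1 and 16 held 1.69 and 1.59 knockout peaks per wild-type peak, and chromosome 4 held 0.714. Over the 20 chromosomes the log2 of this ratio of peak numbers and the share of extended pairs rose together, with Pearson's r at 0.92 and Spearman's rho at 0.905, and with r at 0.906 when chromosomes 4 and 1 were left out. The points share the same 2 libraries and chromosomes are not replicates, so these values are a description. With 1 library per genotype, a difference between the 2 cultures that follows whole chromosomes cannot be told apart from a difference of genotype. Why the chromosomes differed was not tested.

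The size of the extension differed between chromosomes as well, but the rule itself narrows the spread of size. It requires 200 bp or more on each side, and no extended pair gained less than 402 bp. The share extended has no such floor, so the spreads of size and frequency cannot be weighed against each other. The median added width of extended pairs reached 870 bp for chromosome 1 (95% interval 827 to 945 bp) and 671 bp for chromosome 4 (95% interval 554 to 773 bp). Chromosome 15 had the highest median, 1055 bp (95% interval 965 to 1114 bp), and the next was 872 bp on chromosome 13 (95% interval 793 to 985 bp), whose interval overlaps it. On chromosome 15 the larger extension had a median of 697.5 bp and the smaller one of 301.5 bp, so that the excess lay mostly on a single side. Of the 31 extended pairs with a knockout peak wider than 5 kb, 8 were on chromosome 15 and 5 on chromosome 13. The median starting width of extended pairs lay between 1229 bp (chromosome 4) and 1587 bp (X).

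The share varied along chromosomes as well, though less than between them. In bins of 20 Mb with at least 50 pairs, chromosome 1 had shares of 17.3 to 31.4% (9 bins), chromosome 16 of 14.04 to 29.6% (4 bins) and chromosome 13 of 16.1 to 23.9% (6 bins). On chromosome 4 the 8 bins ran from 0.885 to 8.20%, and on chromosome 6 from 2.25 to 4.39%. Within some chromosomes the extremes had intervals that did not overlap, with 3.85% (1.77 to 7.18%) and 15.5% (8.92 to 24.2%) on chromosome 2, 3.02% (1.31 to 5.86%) and 10.4% (6.19 to 16.2%) on chromosome 17, and 14.04% (8.24 to 21.8%) and 29.6% (24.7 to 34.9%) on chromosome 16. Every bin of chromosome 1 was thus above every bin of chromosomes 4 and 6. Chromosome identity accounted for 88.9% of the variance between 133 bins weighted by their number of pairs.

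Extended pairs were slightly gathered along the chromosome beyond this. The next matched pair beside an extended pair was extended as well in 17.1% of 6215 cases. For pairs beside the others, weighted to the same chromosomes, the share was 15.02%, and it was lower than beside extended pairs on 16 of the 20 chromosomes. At the tenth pair along, a median of 450.6 kb away, the shares were 15.6 and 15.4%. For neighbours less than 5 kb away the share was 19.6% beside extended pairs and 15.2% beside the others so weighted. The next pair beside an extended pair had a median added width of 314 bp, against 207 bp beside the others, or 283 bp when the others were weighted to the same chromosomes. The median was higher on 19 of 20 chromosomes. Without the neighbours that were themselves extended on both sides, the medians were 248 bp and, weighted, 226 bp. At the tenth pair along they were 284 and, weighted, 287 bp over all neighbours. Most of the unweighted gap thus went with the chromosome. The remaining difference was not tested.

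Most extended pairs stood alone between pairs that did not pass the rule. Since 11.2% of the pairs under the limit were extended, this is the usual case for so small a share. Of the 3110, 2165 (69.6%) had no extended pair directly beside them in the order of matched pairs, and 299 lay in 90 runs of 3 or more. Of these runs 69 were on chromosomes 1, 5, 13, 15 and 16, which held 48.7% of the extended pairs and had the highest shares. The median distance from an extended pair to the next was 203 kb (quartiles 56.9 and 655 kb). It was 86.6 kb on chromosome 15 and 106.5 kb on chromosome 16, and 1567 kb on chromosome 4.

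The longest run had 7 extended pairs within 31.9 kb of chromosome 5, from 36055739 to 36087618. Their wild-type peaks were 938 to 2263 bp wide and gained 757, 2109, 1132, 1299, 591, 1217 and 1041 bp in order along the chromosome. In 6 of the 7 the larger extension was at the higher coordinates. The next runs had 6 pairs each. On chromosome 1, from 186631081 to 186707922, the pairs gained 434 to 1272 bp, and on chromosome 16, from 30735257 to 30829569, they gained 646 to 2135 bp. All 3 of these runs lay on chromosomes with a high share of extended pairs.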

How the data were processed

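Peak positions from H2A.Z ChIP-seq of wild-type and Anp32e knockout fibroblasts were used, 1 library each. Input libraries were not analysed here. The authors deposited, for each H2A.Z library, the chromosome, start and end of its peaks, saved from Galaxy per the file headers. Per the submitters' processing notes positions are on mm9, and MACS 1.4.2, HOMER, Bowtie 0.12.8 and CASAVA 1.8.2 were used. Not given in the sources used here are their settings, the peak threshold and any use of the inputs. A deeper library usually gives wider peaks, and depth is unknown.

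Pairs were matched and measured with scipy 1.17.1, pandas 2.3.3 and numpy 2.4.6 under Python 3.11.15, and figures drawn with matplotlib 3.10.9. The matching was tested on simulated data. Shares carry exact Clopper-Pearson 95% intervals and medians exact binomial intervals from order statistics. The ratio of extended to shortened pairs carries the interval of their share. One-genotype peaks share no base with the other list, and their distance was taken from the edges of the joined region.

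The members and the comparisons were chosen with earlier results of these data known. Named regions are the 10 with the largest smaller-side extension, the 3 narrowest, the 3 most isolated, the 3 longest runs and the pairs next to each limit. Weighting by chromosome and width, and leaving out extended neighbours, were added after seeing the data.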

Additional observations from a re-analysis of the deposited data

How the results depend on the processing

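Of 88 alternative values, 41 moved and 47 stayed within the interval of the reported value (counts within 1.5 times), and no ratio turned below 1. The number and share of extended pairs followed the limit on extension by construction: 7579 pairs (27.3%) at 100 bp, 1283 (4.62%) at 300 bp and 535 (1.93%) at 400 bp. Median added widths were then 544, 1117 and 1511 bp, and shares on chromosomes 1, 13 and 16 were 23.7, 33.5 and 37.4%. At 100 bp the ratio to shortened pairs was 13.7, the starting width 1576 bp and the smaller side 36.1% of the added width. The starting width was 1415 bp at 300 bp, and the nearest wild-type peak lay 7.88 kb away at 400 bp. Below 2000 bp of width, 14.2% were extended, from 1291 bp. With an extension of 10% of the width the values were 15.7%, 1282 bp, 678 bp added, 37.01% on the smaller side and 25.8% on those chromosomes. With overlap of 50% of both peaks they were 9.54%, 1567 bp, 723 bp, 40.3% and 27.1%. Merging peaks within 500 bp gave 11.6% extended, 825.5 bp added, 37.9% on the smaller side and a distance of 9.84 kb. Without chromosomes 1, 13 and 16, 9.21% were extended, with a ratio of 13.9, 768.5 bp added and 8.21 kb. Without chromosome 4, 11.8% were extended, with a ratio of 29.5. Measured from the wild-type centre, an alternative added after seeing the data, knockout-only peaks lay within 10 kb of 30.5% and wild-type-only peaks of 10.1% of extended pairs. Among the other pairs these shares were 18.1 and 13.5%, or 23.2 and 10.3% when weighted to the chromosomes of the extended pairs. Beyond the construction of each alternative, the cause was not tested. No paired analysis was possible because no genotype was sequenced from more than 1 H2A.Z library. Since read depth is unknown, it limits all widths compared here.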

Other observations

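Matched pairs at or above the width limit were also extended, though less often. Of 1233 pairs with a wild-type peak of 3500 bp or more, 80 (6.49%) had a knockout peak reaching 200 bp or more past both edges. This is close to the 6.78% in the widest class under the limit.

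Windows of 1 Mb with an extended pair numbered 1163, of 2158 with any matched pair, and 481 held no more than 1. The fullest had 16, on chromosome 1 from 135000001 to 136000000 (of 45 pairs) and on chromosome 15 from 99000001 to 100000000 (of 49 pairs). Chromosome 1 held 3 of the 5 fullest windows, all between 134000001 and 138000000, with 14, 16 and 15 extended pairs. In the first of these 3 the share was 45.2% of 31 pairs.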
